A study of Mus musculus with 60 samples.

Results

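Interferon-induced and antigen presentation genes were followed in the prefrontal cortex of mice carrying HT or WT labels for Trip12, a gene for an E3 ubiquitin ligase. The members are 37 genes chosen by symbol for these roles, and 36 of them had a row among the 18088 genes of the deposited table. Zbp1, a nucleic acid sensor, was not analysed here. All 36 passed the filter on low values. They comprise 4 genes of transcription and signalling, 4 sensors, 21 antiviral effectors, 3 guanylate-binding proteins and 4 genes of MHC class I and antigen transport.

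Messenger RNA came from C57BL/6J mice at postnatal day 25, and 60 libraries formed 12 groups of 5. The groups were HT and WT mice, male and female, whose dams' milk carried lithium, fluoxetine or vehicle from postnatal day 3 to 24. Lithium is a mood stabiliser and fluoxetine a selective serotonin reuptake inhibitor; HT is given in the labels as heterozygous, and the allele is not stated in the sources used here. Neither animals nor litters are identified in the labels, and p-values measure only the spread between these samples.

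Type I interferons bind a receptor that signals through kinases and transcription factors, among them STAT2 and IRF9, and switches on a common set of antiviral genes. IRF7, itself an interferon-induced transcription factor, then amplifies the response. The products sense foreign RNA and DNA, block viral entry, translation and replication, or load peptides onto MHC class I molecules for display at the cell surface. In brain tissue, microglia, border macrophages and endothelial cells are known for responding strongly, while neurons keep MHC class I low. In bulk tissue, fewer cells of a type and less RNA per cell cannot be told apart.

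Many interferon-induced promoters carry repeats of GAAA, to which IRF factors bind. The motif GAAA, any 2 bases, GAAA was searched on both strands, with overlapping matches counted, from 250 bases before to 50 after each start in RefSeq promoters, build GRCm38.p6. A match was present in 17 of the 30 members that had a promoter in the table, or 56.7%, against 3.7% of the 12634 genes tested that had one. Of all 32851 promoters in the table, 3.44% held it. The promoters of 5 members are shown as their last 200 bases before the start, 5′ to 3′ on the gene's strand, with the motif in capitals. They were chosen after their values were seen: Irf7 for the genotype difference under lithium, Ifit3, Ifit3b and Bst2 for differences described later, and Isg15 for the densest run of the motif. Their positions are chr7:141266425-141266624 (minus strand) for Irf7, chr19:34583329-34583528 (plus) for Ifit3, chr19:34607757-34607956 (plus) for Ifit3b, chr8:71537473-71537672 (minus) for Bst2 and chr4:156200819-156201018 (minus) for Isg15.
Irf7: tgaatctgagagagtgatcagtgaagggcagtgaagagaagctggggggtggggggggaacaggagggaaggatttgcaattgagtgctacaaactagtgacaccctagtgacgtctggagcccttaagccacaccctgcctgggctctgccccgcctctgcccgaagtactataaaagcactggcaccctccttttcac
Ifit3: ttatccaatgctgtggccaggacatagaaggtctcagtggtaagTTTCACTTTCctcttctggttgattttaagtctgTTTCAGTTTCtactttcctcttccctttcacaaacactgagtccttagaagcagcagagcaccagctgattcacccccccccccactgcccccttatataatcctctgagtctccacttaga
Ifit3b: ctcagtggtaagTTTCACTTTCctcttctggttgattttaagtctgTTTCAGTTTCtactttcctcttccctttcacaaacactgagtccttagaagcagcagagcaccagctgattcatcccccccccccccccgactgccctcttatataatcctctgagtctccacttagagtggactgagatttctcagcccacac
Bst2: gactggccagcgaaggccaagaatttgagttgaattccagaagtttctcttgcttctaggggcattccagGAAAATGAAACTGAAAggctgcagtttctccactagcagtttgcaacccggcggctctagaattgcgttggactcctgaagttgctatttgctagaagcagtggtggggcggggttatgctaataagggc
Isg15: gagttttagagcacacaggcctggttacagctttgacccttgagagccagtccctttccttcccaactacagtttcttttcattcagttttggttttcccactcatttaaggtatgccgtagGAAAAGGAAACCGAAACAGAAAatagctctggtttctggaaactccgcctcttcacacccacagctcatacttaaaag
Ifit3 and Ifit3b held 2 matches each, Bst2 held 2 that overlap, and Isg15 held 3 that overlap, while the motif was not in the Irf7 window. Ifit3 and Ifit3b also share most of the sequence around the motif. Their coding sequences are 99.1% identical (1201 of 1212 bases), and those of H2-K1 and H2-D1 are 88.3% identical, so reads may have been split between the members of each pair and their separate values are uncertain.

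Recovered depth ran from 25.1 to 36.6 M reads per library (M, mega). It followed treatment: fluoxetine libraries (32.7 to 36.6 M) and lithium females (32.1 to 35.9 M) lay wholly above vehicle libraries (26.6 to 31.0 M), while lithium males (25.1 to 33.5 M) overlapped them. HT and WT overlapped within each treatment and sex. Within lithium the sexes differed, with medians of 30.0 M (HT) and 28.7 M (WT) in males and 34.4 M (HT) and 34.6 M (WT) in females. The part of depth in the drug comparisons and in those between the sexes was not tested. Trip12 averaged 6186 ± 323 normalized counts in HT libraries and 5740 ± 401 in WT libraries (SD, n = 30 each), so it was not lower in HT, and HT and WT are used here as the labels give them. The summed level of 10 striatal markers was 6153 to 20434 (median 18085) in HT vehicle males, against 5866 to 9000 (median 6205) in WT vehicle males. Its lowest HT vehicle male value was that of replicate 1, where 8 olfactory bulb markers summed to 13956, against 2136 to 3579 in the other 4. Red blood cell markers summed highest of all 60 libraries in WT fluoxetine male 2, at 27819. Results for members that rest on either library are given also without both. The striatal sum of HT vehicle male 1 lay within the range of WT vehicle males. Leaving it out keeps the other 4, with striatal sums of 12054 to 20434, so that fit does not remove the striatal difference.

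Levels differed widely among the members. Per kilobase of exon, and averaged over 60 libraries, B2m, the constant light chain of MHC class I, stood at 2084 normalized counts, H2-D1, a classical heavy chain, at 350, and Ifitm3, which blocks viral fusion in endosomes, at 303. Irf7 stood at 18.1. The lowest were Ifi44 at 5.39 and Oas2, an RNA-activated oligoadenylate synthetase, at 3.84. Oas2 averaged 17.1 normalized counts (2.74 to 32.6), so its fold changes carry the widest errors.

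Under lithium, HT males had higher Irf7 than WT males, and 35 of the 36 members had a positive log2 fold change of HT over WT, against 51.5% of all 17804 genes tested. The 36 members had a median log2 fold change of 0.28, beside 0.01 over all genes. They were chosen with earlier results of these data known, and they vary together (mean Pearson r 0.14 with group means removed). Counts of members with one sign, here and below, are therefore descriptions and not separate results. Only Irf7 passed the threshold, an adjusted p under 0.05 by limma over all genes tested, in a comparison where 0.225% of all genes did, 0.0674% being higher. At an unadjusted p under 0.05, 15 members were higher and 0 lower, where 6.61% of all genes were higher and 7.05% lower.

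Irf7 (chr7:141262706-141266481, minus strand) had 65.5, 99.3, 88.0, 121.7 and 81.1 normalized counts in HT lithium males, against 42.0, 68.4, 42.0, 56.5 and 49.3 in WT lithium males. The lowest HT library lay below the highest WT library, and every HT library lay above the WT mean. The means were 91.1 ± 21.0 in HT and 51.6 ± 11.1 in WT (SD, n = 5 each), a log2 fold change of 0.80 ± 0.19 (SE) with an adjusted p of 0.045 by limma. The call was lost in 9 of 10 fits that each left out 1 library, where the log2 fold change was 0.69 to 0.91 and the adjusted p 0.035 to 0.16. It was kept without HT lithium male 5. DESeq2 gave an adjusted p of 0.014 and edgeR 0.051.

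**Figure D1:**
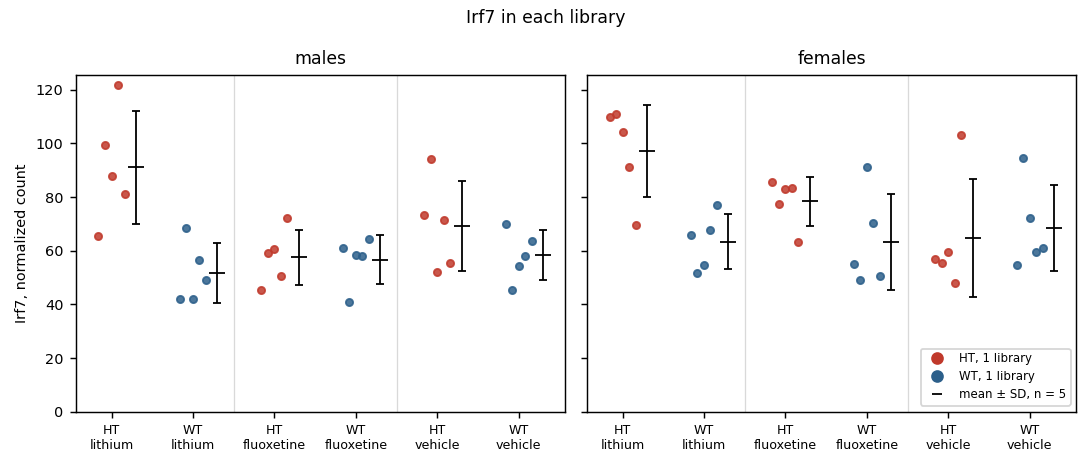
Irf7 normalized counts (linear axis) in each library, males in the left panel and females in the right, with HT left of WT within lithium, fluoxetine and vehicle. Points are libraries, and the line and bar are the mean ± SD (n = 5). HT lithium groups stand highest in both sexes, with means of 91.1 in males and 97.2 in females, while the 10 other groups average 51.6 to 78.5.

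The other genes of transcription and signalling did not pass. Usp18, which removes ISG15 from proteins and dampens the receptor, averaged 33.4 ± 8.09 normalized counts in HT and 22.8 ± 4.13 in WT lithium males (log2 fold change 0.52 ± 0.28, adjusted p 0.40 by limma). Irf9 averaged 419.9 ± 60.1 in HT and 366.0 ± 30.0 in WT, a log2 fold change of 0.19 with an adjusted p of 0.43. Stat2 was level, at 774.1 ± 45.03 in HT and 775.1 ± 49.1 in WT, a log2 fold change of -0.00.

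The 4 sensors of foreign RNA had small positive differences, with a median log2 fold change of 0.16. Eif2ak2, the RNA-activated kinase PKR and the most abundant of them by read count, had 220.5, 190.6, 155.5, 176.0 and 168.2 normalized counts in HT lithium males, against 200.6, 192.6, 143.6, 148.3 and 148.8 in WT lithium males. The groups overlapped, with a log2 fold change of 0.13 ± 0.14. Ddx58, which encodes RIG-I, had 0.26 ± 0.10 (adjusted p 0.23 by limma), and Dhx58, which encodes the related LGP2, had 0.19 ± 0.19. Ifih1, which encodes MDA5, was at 0.01 ± 0.11.

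All 21 effectors had a positive log2 fold change in lithium males, with a median of 0.41, and 0 were called. Ifi27, Lgals3bp, Parp14 and Xaf1 were wholly higher in HT, with no overlap between the 5 HT and 5 WT libraries, as in 1% of all genes. Lgals3bp, a secreted glycoprotein that binds galectins, had 488.8, 484.5, 411.4, 474.7 and 392.2 normalized counts in HT, against 292.7, 359.7, 335.1, 256.5 and 336.8 in WT. Ifi27, a mitochondrial and nuclear-envelope protein, had 420.1, 396.2, 375.9, 349.8 and 381.8 in HT, against 320.3, 278.6, 258.0, 295.3 and 347.7 in WT. The gap between the groups was narrow for Ifi27, where the lowest HT and highest WT libraries nearly met. Their log2 fold changes were 0.51 ± 0.13 for Lgals3bp (adjusted p 0.080) and 0.36 ± 0.10 for Ifi27 (adjusted p 0.095), both by limma.

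Xaf1, a partner and antagonist of the apoptosis inhibitor XIAP, had 95.7, 93.3, 81.8, 103.2 and 80.2 normalized counts in HT lithium males, against 69.6, 67.5, 53.7, 65.9 and 55.7 in WT. Parp14, an ADP-ribosyltransferase, had 153.9, 162.8, 131.5, 159.7 and 130.7 in HT, against 118.7, 112.4, 107.4, 94.1 and 95.8 in WT. Replicates 3 and 5 were the lowest of the HT libraries for both genes. Their log2 fold changes were 0.53 ± 0.16 and 0.48 ± 0.15, with adjusted p-values of 0.10 and 0.12 by limma. Trim30a, which dampens signalling by Toll-like receptors in mice, had 0.58 ± 0.18, and Oasl2, an OAS-like protein, 0.51 ± 0.15, neither passing.

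Members of the IFIT family bind viral RNA or translation factors of the host cell. Ifit3 had 251.7, 228.4, 365.2, 247.7 and 184.8 normalized counts in HT lithium males, against 214.9, 219.0, 172.8, 164.7 and 134.2 in WT, so the groups overlapped and HT replicate 3 stood apart as the highest. Its log2 fold change was 0.48 ± 0.15 (adjusted p 0.13 by limma), beside 0.55 ± 0.18 for Ifit1, 0.15 ± 0.19 for Ifit3b and 0.07 ± 0.11 for Ifit2. Oas2 had the largest value of the 36, 1.02 ± 0.30 (adjusted p 0.11), at 9.81 normalized counts on average in WT. Leaving out 1 library moved it between 0.68 and 1.21. Isg15, the ubiquitin-like protein that is joined to other proteins, had 0.59 ± 0.27, and Bst2, the tetherin that holds budding virions, 0.43 ± 0.20. Cmpk2, a mitochondrial nucleotide kinase next to Rsad2 on chromosome 12, averaged 0.01 ± 0.07, and Slfn2, which keeps T cells quiescent, 0.06 ± 0.18.

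Guanylate-binding proteins, large GTPases that attack intracellular pathogens, had log2 fold changes of 0.26 for Gbp7, 0.22 for Gbp3 and 0.02 for Gbp2, none passing. MHC class I genes also did not pass. B2m had 1784, 1880, 2073, 1664 and 1851 normalized counts in HT lithium males, against 1802, 1945, 1742, 1958 and 1700 in WT, with overlapping groups and a log2 fold change of 0.02 ± 0.09. H2-D1 and H2-K1 had 0.16 ± 0.10 and 0.14 ± 0.13. Tap1, which pumps peptides into the endoplasmic reticulum, had the largest of this group, 0.42 ± 0.16 (adjusted p 0.21 by limma).

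**Figure D2:**
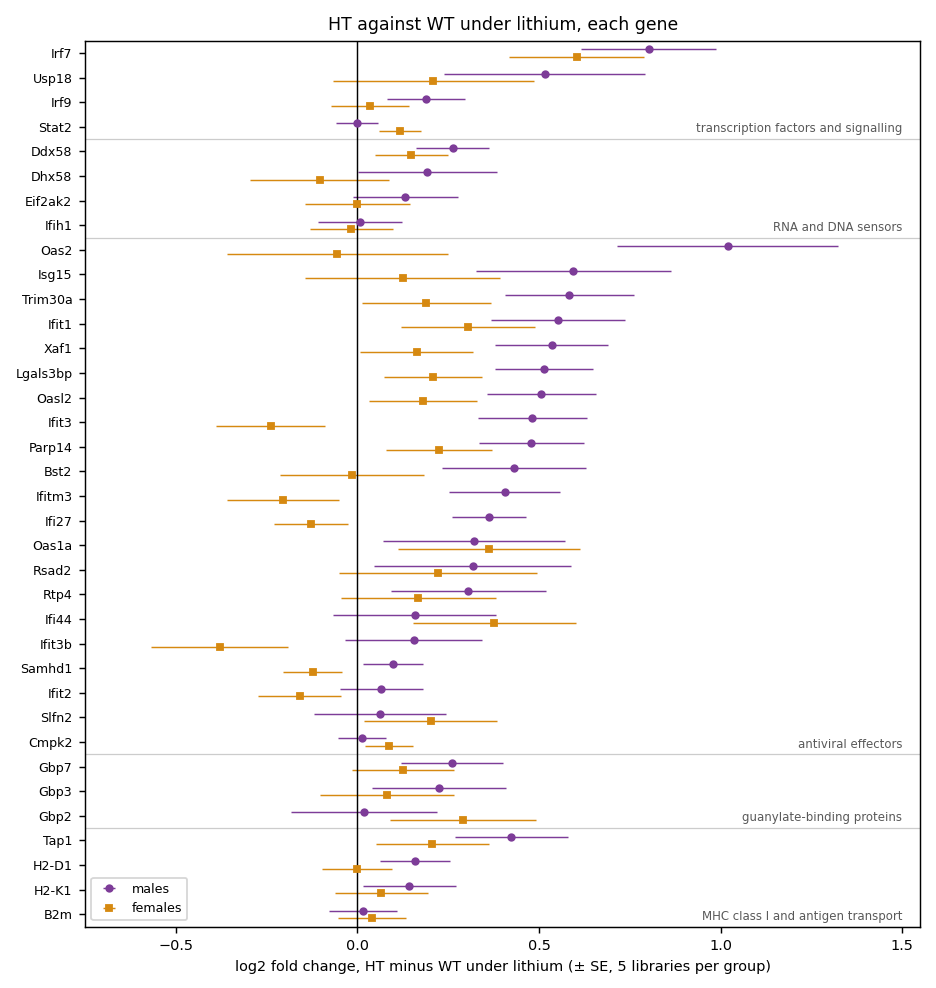
Log2 fold change of HT over WT under lithium for each of the 36 genes, grouped by role, in males and females, with bars for the SE of the limma fit over 60 libraries. In males 35 of 36 points lie above 0 and Irf7 is the called gene, while in females 24 of 36 lie above 0 and none is called.

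Cell markers in the same male comparison were as follows. Microglial markers, 16 of 18 with a positive log2 fold change, summed to 15188 to 18336 in HT and 14026 to 16209 in WT. Border macrophage markers summed to 545.6 to 710.4 in HT and 499.5 to 697.8 in WT. Endothelial markers summed to 9350 to 10735 in HT and 9127 to 10261 in WT, so both overlapped. Red blood cell markers were positive in 5 of 5 and summed to 5903 to 12887 in HT and 4180 to 9736 in WT. Olfactory bulb markers were positive in 8 of 8 and summed to 1642 to 18428 in HT and 1265 to 5339 in WT, with HT replicates 1 and 3 the high ones. Cortical neuron markers were positive in 2 of 8, with a median of -0.19, and summed to 123362 to 142582 in HT and 141719 to 154884 in WT, so that the groups barely overlapped. Without HT replicate 1 Irf7's log2 fold change was 0.91, and without HT replicate 3 it was 0.81. With group means removed, Irf7 had a mean Pearson r of -0.34 with the olfactory bulb markers over 60 libraries. These replicates were not left out together, so the fits do not test the part of those markers. None of the cell markers in this comparison was called, and their part in the result was not tested. Of 10 lymphocyte markers, Lck, Cd79a and Cd4 had rows, at means of 35.9, 9.23 and 32.2 normalized counts. Interferon genes themselves and neutrophil markers were not analysed here.

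In lithium females no member was called, nor was any of the 17804 genes (0%). Of the members 24 of 36 had a positive log2 fold change, against 50.7% of all genes, with a median of 0.12, beside 0.00 over all genes. At an unadjusted p under 0.05, 2 members were higher and 1 lower, where 9.64% of all genes passed in either direction. Irf7 had 109.8, 110.8, 104.4, 91.3 and 69.6 normalized counts in HT lithium females, against 65.7, 51.8, 54.5, 67.6 and 77.1 in WT lithium females. HT replicate 5 fell within the WT range and the other 4 lay above it. The log2 fold change was 0.60 ± 0.19 with an adjusted p of 0.29 by limma.

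Some members had values below 0 in lithium females. Ifit3 had 178.9, 208.3, 214.6, 225.6 and 194.5 normalized counts in HT lithium females, against 230.1, 235.6, 259.0, 207.1 and 277.5 in WT, a log2 fold change of -0.24 that did not pass. Ifit3b had -0.38 and Ifitm3 -0.20. Ifi27 had -0.13, beside 0.36 in males. Olfactory bulb markers had a median log2 fold change of -2.03 in this comparison, 0 of 8 positive, summing to 1470 to 14754 in HT and 3528 to 19202 in WT. Their part in the result was not tested.

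Averaged over the sexes, Irf7 had 94.1 ± 18.4 normalized counts in HT lithium libraries and 57.5 ± 11.9 in WT lithium libraries (SD, n = 10 each). All 10 HT libraries lay above the WT mean of their sex. The log2 fold change was 0.70 ± 0.13 with an adjusted p of 0.0067 by limma, in a comparison where 0.573% of genes passed, and it stayed called in each of the 20 fits that left out 1 library. It was the 1 member called. Of all 36, 32 had a positive log2 fold change, against 50.7% of all genes, with a median of 0.17, and 10 were higher at an unadjusted p under 0.05, which 13.2% of all genes reached in either direction. Lgals3bp followed at 0.36 (adjusted p 0.059), called in 5 of the 20 fits, and Parp14 at 0.35 (adjusted p 0.096).

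The genotype difference was not called for any member under vehicle or fluoxetine. Under vehicle 0.0112% of all genes passed in males, 0.00562% in females and 0.152% with the sexes averaged, and the medians of the members were 0.08, 0.07 and 0.07. At an unadjusted p under 0.05, 4, 3 and 4 members were higher and 0 lower in those comparisons, where 9.18%, 5.94% and 8.85% of all genes passed in either direction. DESeq2 and edgeR also called 0 members in each. Irf7 averaged 69.2 ± 16.8 normalized counts in HT and 58.3 ± 9.36 in WT vehicle males, and 64.6 ± 22.01 in HT and 68.5 ± 15.96 in WT vehicle females. These groups overlapped throughout, with log2 fold changes of 0.23 and -0.11. Without HT vehicle male 1 and WT fluoxetine male 2, Irf7 in vehicle males had 0.20, and the medians of the members were 0.07 in males and 0.05 with the sexes averaged, with 0 members called.

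Under fluoxetine 0.0786% of all genes passed in males, 0% in females and 0.135% with the sexes averaged. Member medians were 0.00, 0.12 and 0.06, and at an unadjusted p under 0.05 there were 0, 3 and 0 members higher and 3, 0 and 2 lower, where 14.4%, 4.09% and 11.5% of all genes passed in either direction. DESeq2 called Ifi27 with the sexes averaged, and neither it nor edgeR called another member. Ifi27 had 222.9, 276.7, 245.2, 206.8 and 274.7 normalized counts in HT fluoxetine males, against 277.9, 355.1, 304.9, 312.9 and 290.1 in WT fluoxetine males. All HT libraries lay below all WT libraries, as in 1.24% of all genes, while under lithium all lay above. The log2 fold change was -0.33 ± 0.10 (adjusted p 0.14 by limma), and -0.28 without HT vehicle male 1 and WT fluoxetine male 2. All 4 MHC class I and transport genes had a negative value here, with a median of -0.17. Irf7 averaged 57.5 ± 10.3 in HT and 56.7 ± 9.10 in WT fluoxetine males. Without both of those libraries, Irf7's log2 fold change in fluoxetine males was -0.09, against 0.02 with them, that of B2m 0.00, against -0.07, and the members' median -0.02, with 0 members called.

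**Figure D3:**
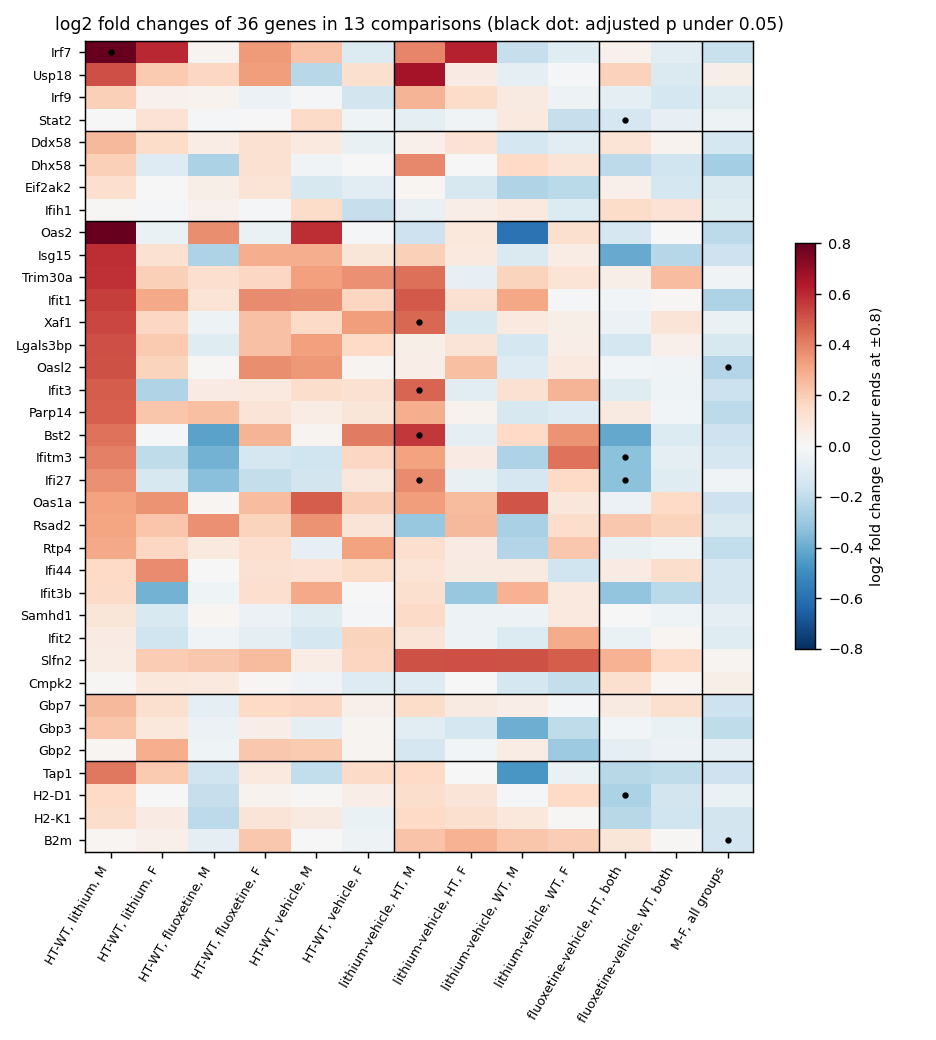
Log2 fold changes (colour, ending at ±0.8) of the 36 genes in 13 comparisons, with a black dot where the limma adjusted p was under 0.05. Of the 6 genotype columns, the 1 dot is Irf7 in lithium males, and lithium against vehicle in HT males holds 4 dots.

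Whether the genotype difference itself depended on treatment or sex was tested with interaction terms. None of the 36 members passed in the interaction of genotype with lithium in males, nor with the sexes averaged, nor in that of genotype with sex under lithium, and in each of these 0% of all genes passed by limma. Unadjusted p-values under 0.05 were reached by 5, 2 and 5 members, all positive, where 12.4%, 5.59% and 10.7% of all genes reached it in either direction, and DESeq2 and edgeR called 0 members in each. For lithium against vehicle in males the interaction was 0.58 ± 0.26 for Irf7 (adjusted p 0.37), 0.51 ± 0.14 for Ifi27 (adjusted p 0.23) and 0.57 ± 0.22 for Ifitm3 (adjusted p 0.31). With HT vehicle male 1 and WT fluoxetine male 2 left out these were 0.60, 0.44 and 0.53, with 0 members called. Averaged over sexes it was 0.64 ± 0.19 for Irf7 (adjusted p 0.80), and 0.66 without both libraries. Between the sexes under lithium it was 0.20 ± 0.26 for Irf7 and 0.72 ± 0.21 for Ifit3 (adjusted p 0.37). These data therefore do not show that Irf7's genotype difference under lithium differs from that under vehicle.

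A comparison added after the data were seen set the male genotype difference under lithium against that under fluoxetine. It gave 0.70 ± 0.14 for Ifi27 (adjusted p 0.070 by limma), 0.78 ± 0.22 for Ifitm3 (adjusted p 0.13) and 0.34 ± 0.14 for H2-D1 (adjusted p 0.23), with 0 members called and 0.00562% of all genes. At an unadjusted p under 0.05, 10 members were positive and 0 negative, where 15.8% of all genes passed. DESeq2 called Ifi27 and edgeR 0 members. Leaving out HT vehicle male 1 and WT fluoxetine male 2 gave 0.64 for Ifi27, 0.74 for Ifitm3 and 0.30 for H2-D1, with 0 members called.

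**Figure D4:**
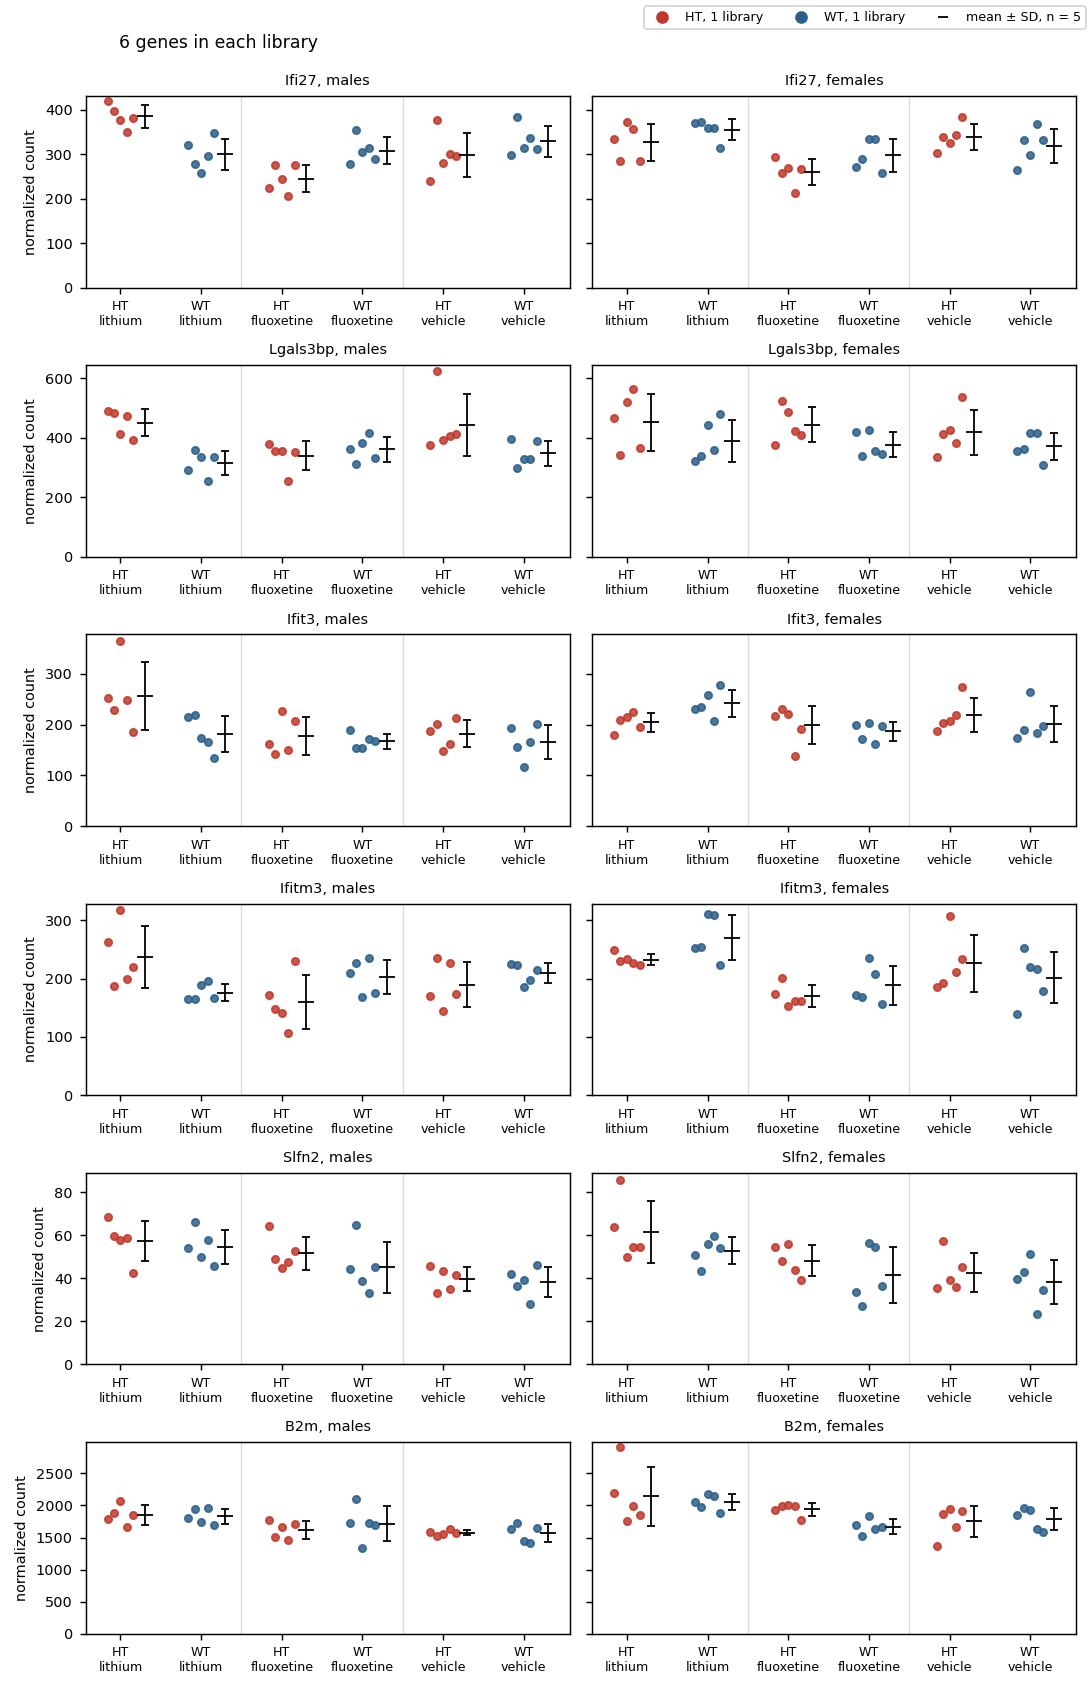
Normalized counts (linear axes) of Ifi27, Lgals3bp, Ifit3, Ifitm3, Slfn2 and B2m in each library, with HT left of WT within lithium, fluoxetine and vehicle, males beside females, and the mean ± SD (n = 5). Ifi27 in males runs higher in HT under lithium (mean 384.7 against 300.0 in WT) and lower in HT under fluoxetine (245.3 against 308.2 in WT).

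Lithium against vehicle was compared within each genotype, and the fluoxetine comparisons share the same vehicle libraries. In HT males 4 members rose, Ifi27, Ifit3, Xaf1 and Bst2, where 13.2% of all genes passed and 6.61% rose. A share of 4 in 36 is near that background. Ifi27 averaged 384.7 ± 25.9 normalized counts in HT lithium males and 298.6 ± 50.1 in HT vehicle males (log2 fold change 0.38 ± 0.10, adjusted p 0.010 by limma). It was called in 10 of 10 fits that left out 1 library. Ifit3 averaged 255.5 ± 66.8 in HT lithium and 182.1 ± 27.2 in HT vehicle males (0.46 ± 0.15, adjusted p 0.032), and was called in 6 of 10, but not without HT lithium male 1 or 3 or HT vehicle male 3 or 4, where it was as low as 0.33. Bst2 had 92.6, 84.4, 130.6, 95.6 and 98.5 in HT lithium males, against 53.0, 91.0, 75.9, 62.6 and 57.4 in HT vehicle males (0.57 ± 0.20, adjusted p 0.047), and Xaf1 had 0.46 ± 0.16 (adjusted p 0.040). Bst2 was called in 3 of those fits, without HT lithium male 2 or HT vehicle male 2 or 3, at 0.47 to 0.68 over all 10. Xaf1 was called in 4, without HT lithium male 3 or 5 or HT vehicle male 4 or 5, at 0.36 to 0.55 over all 10. B2m, not called here, lay wholly above in HT lithium males, as 3.82% of all genes did. Without HT vehicle male 1 and WT fluoxetine male 2, 5 members were called: Ifi27, Ifit3, Ifit1, Slfn2 and Trim30a. Over all genes 2362 passed in that fit, against 2348 with all libraries, so a share of 5 in 36 is near that background. Ifi27 had 0.30 and Ifit3 0.48 there, and Bst2 (0.49) and Xaf1 (0.43) no longer passed.

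Striatal markers fell in the same comparison, 8 of 10 called with a median of -1.26, and 8 of 18 microglial markers rose. Their sums were 7354 to 8876 in HT lithium males and 6153 to 20434 in HT vehicle males for the striatal markers. For the microglial markers they were 15188 to 18336 in HT lithium males and 13641 to 14811 in HT vehicle males. Of 7 border macrophage markers 6 were positive, with a median of 0.60, and Lyve1 rose (1.39). Their sums did not overlap, at 545.6 to 710.4 in HT lithium males and 312.8 to 539.8 in HT vehicle males. The part of these markers in the result was not tested. In HT females 0 members passed by limma, DESeq2 or edgeR, where 1.23% of genes passed by limma, and 3 were higher at an unadjusted p under 0.05, which 14.6% of genes reached. There Irf7 had 0.61 ± 0.19 (adjusted p 0.080 by limma).

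With the sexes averaged, Slfn2, B2m and Irf7 rose under lithium in HT mice, where 14.6% of all genes passed and 7.44% rose. A share of 3 in 36 is near that background. Slfn2 averaged 59.6 ± 11.7 normalized counts in HT lithium and 41.3 ± 7.31 in HT vehicle libraries, B2m 1996 ± 357 in HT lithium and 1662 ± 189 in HT vehicle libraries, and Irf7 94.1 ± 18.4 in HT lithium and 66.9 ± 18.6 in HT vehicle libraries (SD, n = 10 each). The log2 fold changes were 0.51 ± 0.13 for Slfn2 (adjusted p 0.0043 by limma), 0.25 ± 0.07 for B2m (adjusted p 0.0060) and 0.50 ± 0.13 for Irf7 (adjusted p 0.0061). All 3 were called in each of 20 fits that left out 1 library. Without HT vehicle male 1 and WT fluoxetine male 2, Slfn2 had 0.54, B2m 0.26 and Irf7 0.52, and Ifit1 and Irf9 passed as well, making 5. In that fit 3159 of all genes passed, against 2595 with all libraries. HT lithium female 2 held the highest B2m of all libraries, 2911, and also the highest H2-D1, 1452, and H2-K1, 867.

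In WT mice with the sexes averaged, Slfn2 rose and Cmpk2 fell under lithium, where 4.57% of all genes passed. A share of 2 in 36 is near that background. Slfn2 averaged 53.9 ± 6.78 normalized counts in WT lithium and 38.4 ± 8.24 in WT vehicle libraries (SD, n = 10 each; log2 fold change 0.50 ± 0.13, adjusted p 0.015 by limma). Cmpk2 averaged 645.5 ± 47.3 in WT lithium and 723.3 ± 37.9 in WT vehicle libraries (-0.17 ± 0.05, adjusted p 0.028), and was called in 14 of 20 fits that left out 1 library. It lost the call without WT lithium female 1 or 4, WT lithium male 3, WT vehicle female 1 or 5, or WT vehicle male 3, at -0.19 to -0.15 over all 20. Irf7 averaged 57.5 ± 11.9 in WT lithium and 63.4 ± 13.5 in WT vehicle libraries (-0.14). Within each sex 0 members passed in WT by limma, DESeq2 or edgeR, where 1.75% of genes did by limma in males and 0.814% in females. At an unadjusted p under 0.05, 5 passed in males and 6 in females, against 16.9% and 14.5% of all genes.

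Fluoxetine against vehicle lowered 4 members in HT mice with the sexes averaged, where 10.2% of all genes passed, 987 of 17804 being lower. A share of 4 in 36 is near the share of all genes that passed in either direction. All 4 were lower, and the share of all genes that were lower was smaller. With so few members no difference from that share is claimed. Ifi27 averaged 252.5 ± 29.7 normalized counts in HT fluoxetine and 318.6 ± 44.2 in HT vehicle libraries (SD, n = 10 each; log2 fold change -0.33 ± 0.07, adjusted p 0.0021 by limma). H2-D1 averaged 779.1 ± 83.5 in HT fluoxetine and 927.3 ± 87.6 in HT vehicle libraries (-0.25 ± 0.07, adjusted p 0.012). Every HT fluoxetine library of both genes lay below the HT vehicle mean of its sex. Stat2 (-0.13 ± 0.04, adjusted p 0.027) and Ifitm3 (-0.33 ± 0.11, adjusted p 0.042) also passed. Ifitm3 was called in 9 of 20 fits that left out 1 library, at -0.40 to -0.26, and Stat2 in 18, losing the call without HT fluoxetine male 1 or HT vehicle male 5. Without HT vehicle male 1 and WT fluoxetine male 2, the 4 had -0.37 (Ifi27), -0.28 (H2-D1), -0.14 (Stat2) and -0.34 (Ifitm3), and Bst2 and H2-K1 passed as well, making 6. In that fit 3097 of all genes passed, against 1824 with all libraries. In WT mice 0 members passed by limma, DESeq2 or edgeR, where 0.208% of genes did by limma, and H2-D1 alone had an unadjusted p under 0.05, which 10.5% of genes reached. The difference between the genotypes in this response was not tested. In HT fluoxetine against HT vehicle mice, sexes averaged, the border macrophage markers Lyve1 (0.74) and Mrc1 (0.52) rose. Among microglial markers Selplg (0.26) and P2ry12 (0.28) rose and Tyrobp (-0.22) fell. Other markers called included Flt1 (0.44, endothelial), Neurod6 (0.35, cortical neuron) and Tac1 (-0.44, striatal). The part of these markers in the result was not tested.

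Over all treatments and both genotypes, males were lower than females in 33 of 36 members, with a median log2 difference of -0.14, beside -0.00 over all genes, of which 48% were positive. B2m and Oasl2 passed, where 1.19% of all genes did. B2m averaged 1694 ± 184 normalized counts in males and 1890 ± 276 in females (-0.15 ± 0.04, adjusted p 0.035 by limma), and Oasl2 98.4 ± 20.8 in males and 115.3 ± 19.1 in females (-0.24 ± 0.06, adjusted p 0.040; SD, n = 30 each). B2m was called in 50 of 60 fits that left out 1 library and Oasl2 in 34, and leaving out HT vehicle male 1 raised the number of members called to 7. Without it and WT fluoxetine male 2, B2m had -0.17 and Oasl2 -0.22, and 7 members were called. In that fit 1039 of all genes passed, against 211 with all libraries. With all libraries, 20 members were lower in males at an unadjusted p under 0.05, where 9.14% of all genes were. Beside them, the 8 olfactory bulb markers had a median of -0.65 with 0 positive, the 10 striatal markers 0.25 with 10 positive, and the 8 meningeal markers -0.10 with 0 positive. Their part in the result was not tested.

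The level of the 36 genes together, each centred on its own mean over 60 libraries on the log2 scale, described these patterns by library. It averaged 0.17 in HT lithium males, with 4 of 5 libraries above 0, and -0.14 in WT lithium males, with 0 of 5 above 0. HT replicate 5 was the low one at -0.03. In lithium females it averaged 0.15 in HT and 0.06 in WT. In fluoxetine males it averaged -0.14 in HT and -0.13 in WT, and in fluoxetine females 0.10 in HT and -0.03 in WT. In vehicle males it averaged -0.02 in HT and -0.12 in WT, and in vehicle females 0.09 in HT and 0.01 in WT. The HT and WT means under vehicle thus lay about as far apart as in lithium females. Of the 12 groups, HT fluoxetine females held the highest mean of 10 members, HT lithium males of 9 and HT lithium females of 8, while WT vehicle males held the lowest mean of 10.

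**Figure D5:**
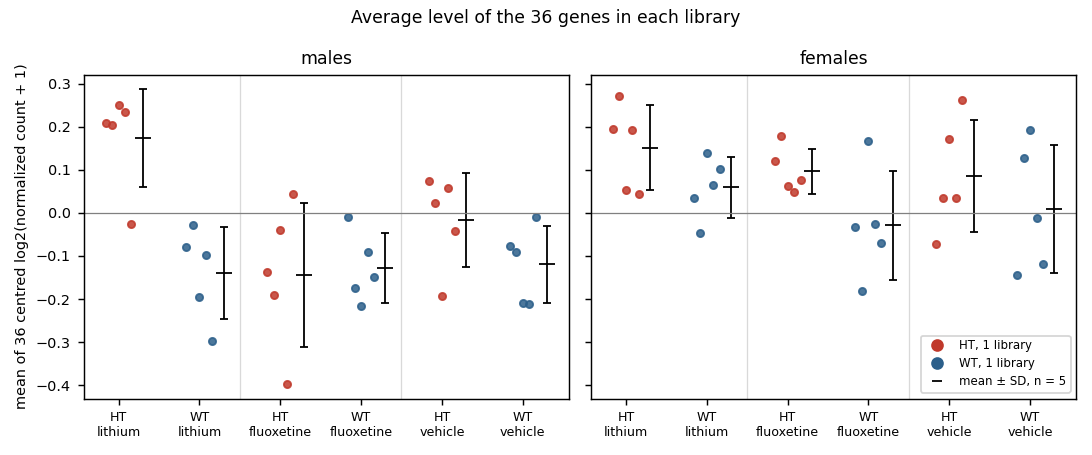
Mean of the 36 centred log2 levels in each library, males left and females right, with HT left of WT within each treatment. HT lithium males average 0.17, with 4 of 5 libraries above 0, and all 5 WT lithium males lie below 0.

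Once group means were removed, the members still varied together to a small degree. Over 60 libraries the 630 pairs had a mean Pearson r of 0.14 (median 0.15), and 485 were above 0, beside a mean of 0.0009 over all pairs of genes tested. The members' mean r with cell markers was nearly as high, at 0.13 with border macrophage, 0.13 with meningeal and 0.12 with microglial markers. It was 0.09 with olfactory bulb and 0.01 with red blood cell markers, but single members differed widely. Rsad2 had 0.62 with red blood cell markers, and Cmpk2 had -0.49 with meningeal markers. With olfactory bulb markers Samhd1 had 0.60, Eif2ak2 0.49, Ifit3 0.33 and Irf7 -0.34. These values are descriptions from shared libraries. The strongest pairs were H2-K1 with H2-D1 (r = 0.88), H2-K1 with B2m (r = 0.69) and Slfn2 with B2m (r = 0.61). Parp14 had the highest mean r with the other members, 0.27, and Cmpk2 the lowest, -0.12.

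Other genes of the pathway were taken from lists of receptors, upstream sensors, further interferon-induced genes and antigen presentation. In HT against WT lithium males, 0 genes of these lists passed. Of 48 further interferon-induced genes 40 had a positive log2 fold change, with a median of 0.26, and of 22 further antigen presentation genes 19 did, with a median of 0.14. The interferon receptors and kinases had 7 of 11 positive and a median of 0.05, with Ifnar1 at -0.01 and Ifnar2 at 0.05, and the upstream sensors and adaptors 10 of 15 and 0.14. In females 33 of the 48 further interferon-induced genes were positive, with a median of 0.12.

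Under lithium against vehicle in HT mice, sexes averaged, 7.44% of all genes rose. Of the 48 further interferon-induced genes 4 rose, a share near that background: Ly6a (0.52), Helz2 (0.34), Irgm2 (0.40) and Irgm1 (0.21). Of 22 antigen presentation genes Calr (0.24), Cd74 (0.53), Pdia3 (0.21) and H2-Ab1 (0.51) rose and Psme1 (-0.19) fell. Tlr7 (0.57), an endosomal RNA receptor, and Ticam1 (0.28), an adaptor, rose among 15 upstream genes, and Jak2 (0.22), Ifngr1 (0.19) and Stat3 (0.16) among 11 receptors and kinases. Beside these, 5 of 7 border macrophage markers rose with a median of 0.60, and 6 of 18 microglial markers rose with a median of 0.12. Cd74 and H2-Ab1 belong to MHC class II, which macrophages express. The part of these markers in the result was not tested.

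Some of these genes were also called in other drug comparisons with the sexes averaged. In WT lithium against WT vehicle mice Tlr7 (0.44), Ly6a (0.36), Irgm1 (0.25) and H2-T23 (0.27) rose, and Gbp9 (-0.43) fell. There 4.57% of all genes passed. In HT fluoxetine against HT vehicle mice Tlr7 (0.73), Tlr3 (0.33), Jak2 (0.21), Pdia3 (0.24), Calr (0.17) and Canx (0.14) rose, and Tyk2 (-0.15) and Adar (-0.10) fell. In that comparison 10.2% of all genes passed. Each time the genes named were all of these lists that passed, a share of the lists near that background. The lithium and fluoxetine comparisons in HT mice share their vehicle libraries.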

How the data were processed

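Per the labels' protocols, a TruSeq Stranded mRNA kit was used. The deposited table holds signal values, read counts per gene divided by 1 size factor per library (DESeq2 normalized counts). The authors used Salmon 0.11.2, R 3.6.0 and DESeq2 1.19.11 with build GRCm38, per the submitters' processing notes; the annotation and the strand setting are not given in the sources used here, so a gene and an overlapping antisense partner may not be separable. Whole reads were recovered from the steps of the values (100% whole within 0.01), with size factors of 0.85 to 1.25. Symbols were matched for 18077 of 18088 gene IDs. No batch is given in the labels.

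Log2(normalized count + 1), a scale that understates changes of low genes, was tested with limma-trend 3.58.1 (R 4.3.3), with 12 group means over 60 libraries (48 residual degrees of freedom). The filter asked for 10 normalized counts or more in 5 libraries or more (17804 genes tested, 284 removed). Adjusted p-values are Benjamini-Hochberg over all genes tested within each of 22 comparisons, two-sided. The median SE between groups of 5 was 0.105 (log2). The steps were checked on simulated data. Alternatives were TMM rescaling, other filters and pseudocounts, array weights, tests of the recovered reads with DESeq2 1.42.0 and with edgeR 4.0.16, a replicate block, only the groups compared, and each library left out; the fit without 2 libraries and the comparison of lithium with fluoxetine were added after the data were seen.

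The members and lists were chosen with earlier results of these data known. All members are named. Values per library were planned for members called between genotypes or, in a role without one, its highest member; further ones were shown after their values were seen. The planned rule for promoters gave none. Coding identity was computed from GRCm38 transcripts with Biopython 1.88.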

Additional observations from a re-analysis of the deposited data

Results flagged for a closer look

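Among 17 members with values shown, 12 of 204 member and group combinations had 1 library far from the other 4, and chance flags about 1 in 20. Irf7 was 41.0 normalized counts in WT fluoxetine male 2, against 58.2 to 64.5 in the others of that group, and 103.2 in HT vehicle female 5, against 47.9 to 59.7. Lgals3bp was 625 in HT vehicle male 2 (others 377 to 413) and 254 in HT fluoxetine male 4 (others 353 to 378). Stat2 was 925 in HT vehicle male 5 (others 775 to 807) and 793 in HT fluoxetine female 4 (others 743 to 750). Gbp7 was 223 in HT lithium male 2 (others 173 to 183) and 153 in WT lithium female 2 (others 171 to 177). Cmpk2 was 658 in WT vehicle male 2 (others 737 to 754) and Ifi27 was 314 in WT lithium female 5 (others 359 to 372). Ifit3 was 263 in WT vehicle female 3 (others 173 to 197) and H2-D1 was 1182 in WT vehicle female 2 (others 821 to 870).

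In 6 of 221 pairs of comparisons every library of the first-named group moved one way in one comparison and the opposite way in the other. These pairs cover the 17 members with values shown, some of them picked after their values were seen. Neither a rate by chance nor a share over all genes is given for this rule, so 6 of 221 cannot be set against a background. Between the male genotype differences under lithium and fluoxetine, Ifi27 had log2 shifts of 0.36 and -0.33, a difference of 0.70 (adjusted p 0.070 by limma), and H2-D1 had 0.16 and -0.18, a difference of 0.34 (adjusted p 0.23). Between the genotype differences in lithium males and females, Ifit3 had 0.48 and -0.24, a difference of 0.72 (adjusted p 0.37), and Ifitm3 had 0.41 and -0.20, a difference of 0.61 (adjusted p 0.39). For lithium against vehicle in males, Ifitm3 had 0.32 in HT and -0.25 in WT, a difference of 0.57 (adjusted p 0.31). For lithium against vehicle in WT mice, Ifitm3 had -0.25 in males and 0.44 in females, a difference of -0.69 that was not tested.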

How the results depend on the processing

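The 41 member values refitted, those called or with an unadjusted p under 0.002 and Irf7 under lithium, kept their direction in all 1355 alternative values. These values were picked for lying far from 0, and most alternatives leave out 1 library, so a change of direction was unlikely from the outset. Values of other members were not followed under each alternative. Without HT vehicle male 1 and WT fluoxetine male 2, 6 members changed sign for genotype in fluoxetine males. Irf7 (-0.09, against 0.02) and B2m (0.00, against -0.07) were among them. In the other comparisons that rest on either library, 0 to 4 members changed sign. The number of members called for HT against WT in lithium males was 1, and it was 2 with DESeq2 (Irf7 and Lgals3bp) and 0 with edgeR, array weights, the replicate block (Irf7 adjusted p 0.060) or only the groups compared (Irf7 adjusted p 0.25); among all genes those fits called 137, 21, 0, 27 and 0, against 40. With the sexes averaged it was 2 with DESeq2 and 2 with array weights, against 1. DESeq2 called 1 member for genotype under fluoxetine with the sexes averaged, 1 between the sexes and 1 for lithium against fluoxetine in males, against 0, 2 and 0. With array weights lithium against vehicle called 2 in HT males, 1 in WT males and 2 in WT females, against 4, 0 and 0, fluoxetine against vehicle in HT called 8, against 4, and the sexes 12, against 2. With only the groups compared lithium in HT males called 0. Without HT vehicle male 1 and WT fluoxetine male 2, lithium in HT with the sexes averaged called 5 and the sexes 7. Over all genes that fit called 3159 and 1039, against 2595 and 211 with all libraries. The cause of these shifts was not tested, except that fewer libraries enter the last 2 fits.

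Leaving out 1 library gave 0 to 1 members called for genotype in lithium males and 1 to 3 with the sexes averaged. For lithium against vehicle it gave 1 to 6 in HT males (1 without HT lithium male 1, 6 without HT lithium male 5), 0 to 1 in HT females, 3 to 5 in HT averaged, 0 to 1 in WT males, 0 to 1 in WT females and 1 to 3 in WT averaged. It gave 3 to 6 for fluoxetine in HT, 0 to 7 between the sexes, 0 to 1 for lithium against fluoxetine in males, and 0 in the other comparisons. Replicate numbers did not pair the samples: in 10 comparisons 11 of 50 same-numbered pairs had a correlation over 0.1 (range -0.24 to 0.37). Under the replicate block, lithium against vehicle in HT with the sexes averaged called 4 members, against 3, and the sexes 3, against 2, and the other counts of members, lithium males apart, were equal to those without it. Counting limits low genes most, and groups of 5 with a median SE of 0.105 leave smaller differences undetected.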
